A study of Homo sapiens with 24 samples.

Results

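A set of 9 genes of the bone morphogenetic protein (BMP) and transforming growth factor beta (TGF-β) pathways was followed in 2 bladder cancer cell lines, across all treatments of the study. They were set by name, with earlier results of these data known, so their calls are not independent of the choice: the ID genes ID1, ID2 and ID3, the signal transducer SMAD3, the inhibitors SMAD6, SMAD7 and BAMBI, the TGF-β-induced matrix gene TGFBI and the ligand gene TGFB2. These are 9 of the 58721 genes in the count table. RT112 is a luminal papillary (LumP) line and SCaBER a basal/squamous (Ba/Sq) line. Cells were transfected, with a lipid reagent, with 1 of 6 siRNA treatments per line. These were a non-targeting siRNA (siControl, number 2 in the labels), either of a pair of siRNAs against the zinc finger gene ZBED2 (siZBED2-1 and siZBED2-2), an siRNA against the forkhead factor gene FOXA1 (siFOXA1, number 1 in the labels), and siFOXA1 combined with siZBED2-1 or with siZBED2-2. RT112 cells were grown in RPMI and SCaBER cells in DMEM, both with serum. Each of the 12 groups held 2 libraries of 3′ RNA-seq, 24 in all. A single siRNA sequence stood for FOXA1 in every group, and each model was 1 established line.

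BMP and TGF-β ligands bind paired serine/threonine kinase receptors on the cell surface, and the receptors phosphorylate SMAD proteins that enter the nucleus and change transcription. BMP receptors act mainly through SMAD1, SMAD5 and SMAD9, and TGF-β and activin receptors mainly through SMAD2 and SMAD3, while SMAD6, SMAD7 and BAMBI damp the signal and are themselves induced by it. ID1, ID2 and ID3 are classic early targets of BMP signalling. They encode helix-loop-helix proteins without a DNA-binding region, which capture E proteins and other basic helix-loop-helix (bHLH) factors, and high ID levels accompany proliferating, undifferentiated epithelial cells.

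The proximal promoters of the ID genes are shown because these genes fell with siFOXA1. Each sequence is the stretch of 250 bases before the RefSeq gene start on GRCh38.p14, read 5′ to 3′ on the strand of the gene, at chr20:31605039-31605288 (plus strand) for ID1, chr2:8681806-8682055 (plus strand) for ID2 and chr1:23559502-23559751 (minus strand) for ID3. Capitals mark matches to any of 6 short motifs.
ID1: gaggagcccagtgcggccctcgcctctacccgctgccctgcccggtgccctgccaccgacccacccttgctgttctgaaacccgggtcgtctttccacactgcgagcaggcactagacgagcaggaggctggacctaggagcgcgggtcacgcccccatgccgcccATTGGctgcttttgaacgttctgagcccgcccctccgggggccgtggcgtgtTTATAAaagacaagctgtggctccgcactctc
ID2: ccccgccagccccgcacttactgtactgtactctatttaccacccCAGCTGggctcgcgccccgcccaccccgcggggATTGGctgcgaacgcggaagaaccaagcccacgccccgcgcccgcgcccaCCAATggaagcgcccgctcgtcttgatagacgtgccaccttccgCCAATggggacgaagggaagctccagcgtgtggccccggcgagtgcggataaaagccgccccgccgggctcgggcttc
ID3: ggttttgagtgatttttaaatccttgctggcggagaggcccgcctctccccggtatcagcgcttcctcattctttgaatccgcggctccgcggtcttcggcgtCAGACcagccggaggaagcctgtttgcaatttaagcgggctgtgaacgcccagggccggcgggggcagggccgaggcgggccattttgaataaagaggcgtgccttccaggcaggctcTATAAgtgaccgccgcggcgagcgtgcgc
The motifs searched on both strands were GGCGCC (a GC-rich SMAD element), CAGAC (the SMAD box), TGTTTAC (a forkhead core), CANNTG (the E-box that bHLH factors bind), CCAAT (the CCAAT box) and TATAA (the TATA box core), the last pair chosen after the windows had been read. ID1 held 1 CCAAT, on the opposite strand, and 2 overlapping TATAA matches, 1 on each strand. ID2 held 1 CANNTG and 3 CCAAT matches. ID3 held 1 CAGAC and 1 TATAA. Neither GGCGCC nor TGTTTAC occurred in these windows. Sequence farther upstream was not searched, and the study found FOXA1 bound mostly outside promoters in other bladder cancer lines. Over 35116 windows of the same length in RefSeq, 16.4% held GGCGCC, 38% CAGAC, 2.98% TGTTTAC, 61.8% CANNTG, 32% CCAAT and 18.9% TATAA. GC content was 66.0%, 69.2% and 62.0% in the windows of ID1, ID2 and ID3.

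Libraries held between 4425404 and 6119210 counts, with 14121 to 16082 genes detected and 8.22% to 22.7% of counts from the mitochondrial genome. In RT112 that mitochondrial share was 18.6% to 22.7% in the 6 libraries with siFOXA1 and 8.22% to 17.8% in the 6 without it. In SCaBER it was 12.9% and 12.5% with siFOXA1 against 9.73% and 10.7% with siControl, while all SCaBER libraries with siFOXA1 (9.29% to 12.9%) and without it (9.55% to 12.0%) overlapped. The part of this share in the siFOXA1 results was not tested. Levels are given as CPM (counts scaled to a common library size), and 3 counts, the limit set by a count of 0, were worth 0.474 to 0.679 CPM (counting error only). Because reads start near the 3′ end, CPM needs no correction for length. FOXA1 was measured in each line as a check of the labels. In RT112 it stood at 41.9 and 41.4 CPM with siControl and at 6.87 and 9.57 CPM with siFOXA1 (log2 fold change −2.36, SE 0.38, adjusted p 5.68e-05). In SCaBER it had 20 and 28 counts with siControl and 4 and 6 with siFOXA1 (−2.09, SE 1.23, adjusted p 0.272), a fall that could not be called at this depth. ZBED2 had 101 and 96 counts in SCaBER with siControl. It fell with siZBED2-1 to 12 and 40 counts (−1.96, adjusted p 0.00848), but had 48 and 100 with siZBED2-2, which was not called (−0.61, adjusted p 0.844). In RT112 ZBED2 had 101 and 92 counts with siControl. It fell with siZBED2-1 to 12 and 0 counts (−3.97, adjusted p 0.00624). With siZBED2-2 it had 38 and 36 counts, both below both controls, which was not called (−1.52, adjusted p 0.903). In RT112 ZBED2 also fell with siFOXA1 alone, from 22.1 and 16.9 CPM to 5.46 and 1.52 CPM (−2.48, SE 0.84, adjusted p 0.0325). Adding siZBED2-1 or siZBED2-2 to siFOXA1 left a mean ZBED2 level of 1.67 and 1.75 CPM there, against 3.49 with siFOXA1 alone, and neither difference was called (adjusted p 0.647 and 0.692). In SCaBER ZBED2 fell when siZBED2-1 was added to siFOXA1 (−2.84, adjusted p 5.37e-04) and gave −0.85 with siZBED2-2 (adjusted p 0.366). A fall of ZBED2 was thus called with siZBED2-1 but not with siZBED2-2, and no ZBED2 siRNA gave a called fall beyond that of siFOXA1 in RT112. Summed luminal markers reached 1073 and 1141 CPM in the RT112 siControl libraries against 164 and 182 in those of SCaBER, and summed basal markers 531 and 473 CPM against 3465 and 3297. Of the 10 luminal markers, 3 were at 0 in every SCaBER library.

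The first comparison asked how the control state of the pathway differed between the LumP and the Ba/Sq line. With siControl, ID1, ID2, ID3 and SMAD6 were higher in RT112, and SMAD3, TGFBI and TGFB2 were higher in SCaBER. Thus 7 of the 9 genes were called (adjusted p under 0.05, edgeR quasi-likelihood test with Benjamini-Hochberg adjustment), where 33.6% of all 14823 genes tested were called. In bulk RNA, fewer cells that express a gene and less RNA per cell cannot be told apart.

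ID1 (chromosome 20, 31605289 to 31606510 of GRCh38.p14) stood at 588 and 679 CPM in the RT112 siControl libraries and at 268 and 361 in those of SCaBER, a log2 difference of 1.01 (SE 0.19, adjusted p 7.97e-05). ID2 (chromosome 2, 8682056 to 8684461) stood at 40.6 and 39.9 CPM in RT112 and at 12.0 and 6.70 in SCaBER (2.10, SE 0.44, adjusted p 2.77e-04). ID3 (chromosome 1, 23557926 to 23559501) stood at 409 and 454 CPM in RT112 and at 152 and 151 in SCaBER (1.51, SE 0.17, adjusted p 6.81e-09). All ID genes were thus higher in both luminal libraries than in either basal library. In both lines ID1 and ID3 were far more abundant than ID2.

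TGFBI (chromosome 5, 136028988 to 136063818), which encodes a secreted matrix protein, stood at 73.8 and 89.5 CPM in RT112 and at 342 and 352 in SCaBER (log2 difference −2.09, SE 0.18, adjusted p 2.01e-11). SMAD3 (chromosome 15, 67065602 to 67195169) stood at 75.8 and 69.6 CPM in RT112 and at 162 and 134 in SCaBER (−1.02, SE 0.20, adjusted p 1.12e-04). TGFB2 (chromosome 1, 218345336 to 218444619) had 0 and 7 counts in RT112 and 285 and 225 in SCaBER (−6.09, SE 0.67, adjusted p 7.09e-09). The ligand gene was thus close to the counting floor in the luminal line, and over all 12 RT112 libraries it ranged from 0 to 16 counts.

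SMAD6 (chromosome 15, 66702236 to 66782849) had 51 and 50 counts in RT112 and 13 and 5 in SCaBER, a log2 difference of 2.55 (SE 0.83, adjusted p 0.0162). That call rested on few counts. It was lost without RT112 siControl replicate 1 (2.41, adjusted p 0.0548) and without SCaBER siControl replicate 2 (2.05, adjusted p 0.147). SMAD7 (chromosome 18, 48919853 to 48950965) had 12 and 17 counts in RT112 and 16 and 8 in SCaBER (0.33, SE 1.06, adjusted p 0.853). BAMBI (chromosome 10, 28677521 to 28682932), a pseudoreceptor gene, had 5 and 5 counts in RT112 and 8 and 1 in SCaBER (0.23, SE 1.44, adjusted p 0.928). For this pair the libraries of the lines overlapped, and a difference was not detectable at this depth.

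The second comparison asked what siFOXA1 did to the pathway. It is a comparison of siRNA treatments, since a fall of FOXA1 was called in RT112 but not in SCaBER. ID1 and ID3 fell with siFOXA1 in both lines, ID2 fell in RT112, SMAD3 fell in SCaBER, and TGFBI rose in RT112. In RT112 this made 1 higher and 3 lower among the 9, a total of 4 called, against 23.3% of the 13264 genes tested in either direction and 11.9% of them lower. In SCaBER, where BAMBI did not pass the filter on low counts, 3 of 8 genes were called, all lower, against 17.8% of the 13129 genes tested in either direction and 9.12% lower.

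ID1 fell from 588 and 679 CPM with siControl to 79.8 and 70.9 with siFOXA1 in RT112, an 8.48-fold lower level (log2 fold change −3.08, SE 0.18, adjusted p 5.76e-12). In SCaBER it fell from 268 and 361 CPM to 41.8 and 44.8 (−2.88, SE 0.20, adjusted p 9.51e-13). Across all 12 RT112 libraries, the 6 with siFOXA1 lay between 70.9 and 198 CPM and the 6 without it between 588 and 755. In SCaBER the ranges were 41.8 to 99.7 CPM with siFOXA1 and 229 to 361 without. The ranges did not overlap in either line.

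ID2 fell in RT112 from 40.6 and 39.9 CPM to 7.88 and 11.7 (−2.05, SE 0.29, adjusted p 1.22e-05). In SCaBER it was sparse, with 64 and 34 counts with siControl and 20 and 14 with siFOXA1 (−1.37, SE 0.67, adjusted p 0.167). Both SCaBER siFOXA1 libraries were below both controls, but SCaBER libraries without siFOXA1 ranged from 16 to 64 counts, and a difference could not be called at this depth. ID3 fell less than ID1. In RT112 it went from 409 and 454 CPM to 268 and 282 (−0.66, SE 0.15, adjusted p 0.00171), and in SCaBER from 152 and 151 CPM to 70.6 and 95.0 (−0.89, SE 0.18, adjusted p 3.5e-04).

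**Figure D1:**
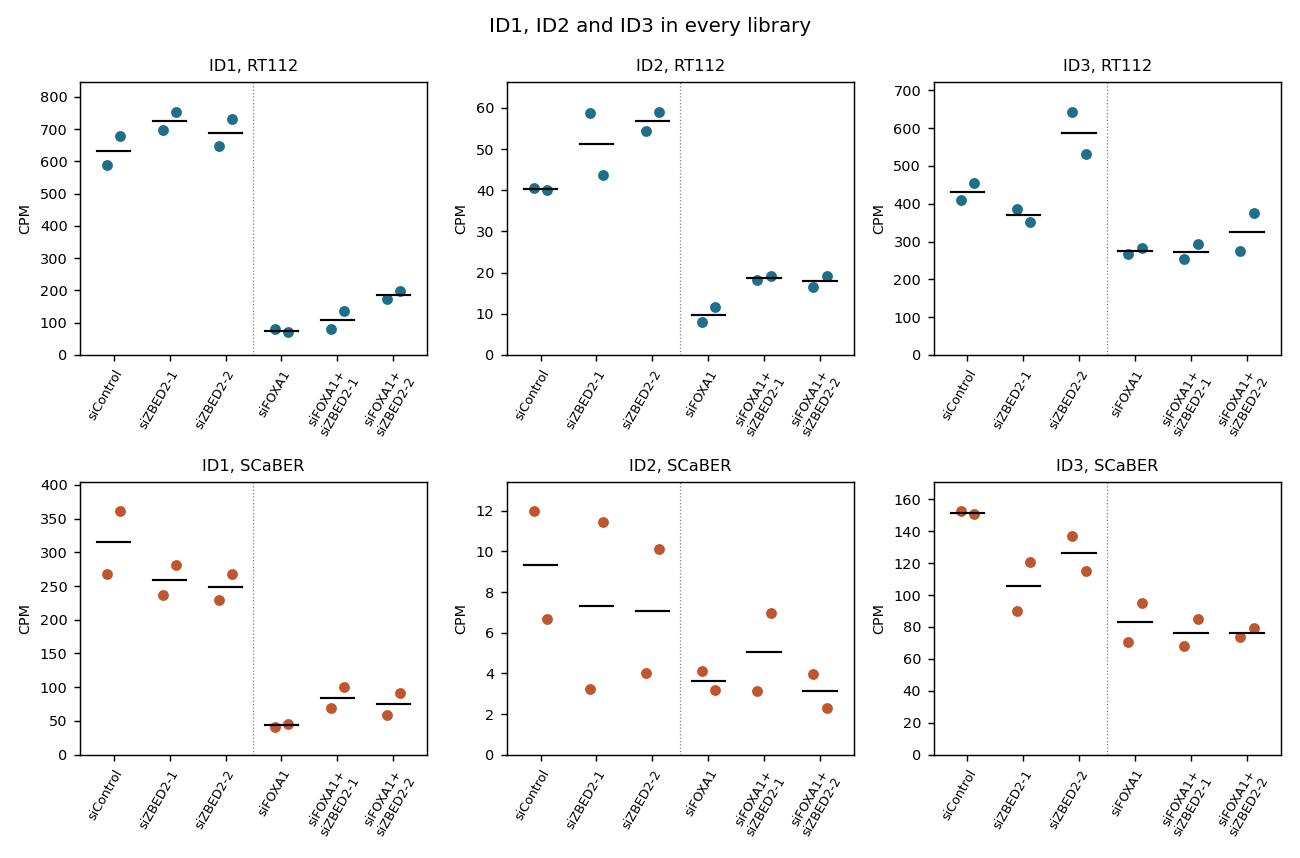
CPM of ID1, ID2 and ID3 (linear axes from 0) in the 2 libraries (points) and their mean (bars) of each of the 6 treatments, RT112 above and SCaBER below. The dotted line parts treatments without siFOXA1 from those with it, and ID1 lies between 70.9 and 198 CPM to its right and between 588 and 755 to its left in RT112.

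The response of TGFBI to siFOXA1 differed between the lines. In RT112 it rose from 73.8 and 89.5 CPM to 135 and 175 (log2 fold change 0.91, SE 0.18, adjusted p 5.94e-04). In SCaBER it stood at 342 and 352 CPM with siControl and at 267 and 293 with siFOXA1 (−0.33, SE 0.15, adjusted p 0.136). With the replicate number as a block, which pairs libraries of one experiment batch, this SCaBER value was −0.33 with an adjusted p of 0.0327. The difference between the lines was 1.23 on the log2 scale (SE 0.24, adjusted p 0.00309), RT112 minus SCaBER.

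SMAD3 stood at 75.8 and 69.6 CPM in RT112 with siControl and at 78.2 and 92.9 with siFOXA1 (0.22, SE 0.22, adjusted p 0.53). In SCaBER it fell from 162 and 134 CPM to 112 and 98.2 (−0.51, SE 0.16, adjusted p 0.0212). The SCaBER call was lost without siControl replicate 1 (−0.36, adjusted p 0.268) and without siFOXA1 replicate 2 (−0.42, adjusted p 0.187). The difference between the lines, 0.72 (SE 0.28), did not pass (adjusted p 0.186), so a response of SMAD3 limited to 1 line was not shown.

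TGFB2 in SCaBER stood at 53.3 and 44.3 CPM with siControl and at 48.9 and 42.3 with siFOXA1 (−0.11, SE 0.23, adjusted p 0.799), and the libraries overlapped. SMAD6 in RT112 stood at 11.1 and 9.20 CPM with siControl and at 9.70 and 8.70 with siFOXA1 (−0.16, SE 0.50, adjusted p 0.87). SMAD7 held 0 to 20 counts in the RT112 libraries and 8 to 30 in those of SCaBER, and BAMBI held 3 to 18 in RT112. BAMBI had 11 counts at most in SCaBER, 2 and 1 with siFOXA1 and 0 in all 4 libraries of the double transfections. No change of the feedback inhibitors SMAD6 and SMAD7 with siFOXA1 was detectable at these depths.

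**Figure D2:**
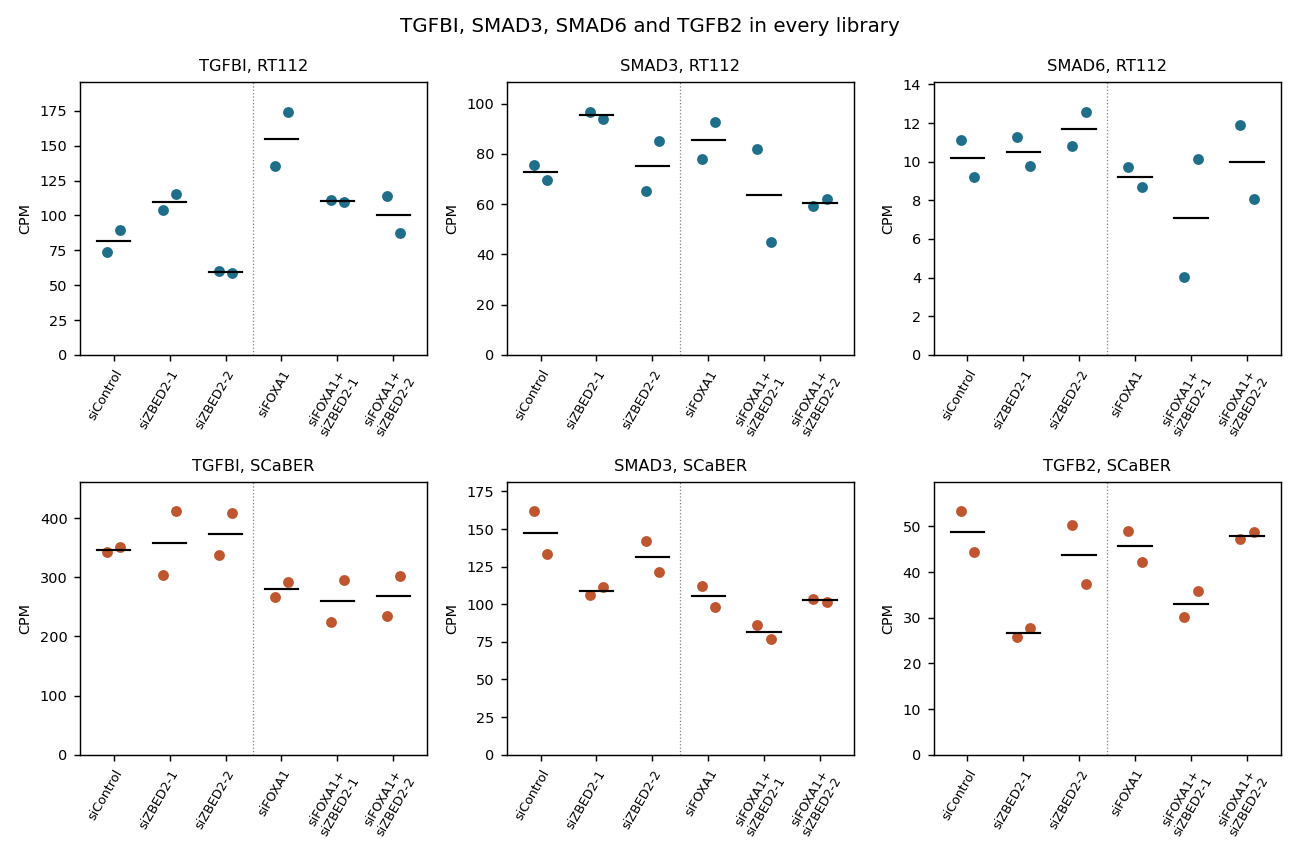
CPM of TGFBI, SMAD3 and SMAD6 in RT112 (above) and of TGFBI, SMAD3 and TGFB2 in SCaBER (below), for the 2 libraries (points) and their mean (bars) of each treatment, on linear axes from 0. TGFBI was at 135 and 175 CPM in the RT112 siFOXA1 libraries against 73.8 and 89.5 with siControl, and TGFB2 in SCaBER was lowest in the siZBED2-1 libraries at 25.7 and 27.7 CPM.

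Of the 9 genes, 1 differed in its siFOXA1 response between the lines, where 2.58% of the 14823 genes tested did. That gene was TGFBI. For ID1 the difference between the lines was −0.21 (SE 0.29, adjusted p 0.834), for ID2 −0.68 (SE 0.67, adjusted p 0.725) and for ID3 0.22 (SE 0.24, adjusted p 0.75), so no difference of the ID responses between the LumP and the Ba/Sq line was detected.

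The FOXA1 siRNA was also given to cells that received a ZBED2 siRNA, which repeats the comparison on backgrounds with their own libraries. ID1 fell on every background in both lines, ID2 on every background in RT112, and ID3 on both siControl and siZBED2-2 backgrounds in each line. On siZBED2-1, 2 of 9 genes were called in RT112, both lower (10.3% of all genes, 5.41% lower), and 1 of 8 in SCaBER, lower (5.78%, 2.73% lower). On siZBED2-2, RT112 had 4 of 9 called, of which 1 was higher and 3 were lower (8.78%, 4.34% lower), and 2 of 8 in SCaBER, both lower (3.03%, 1.38% lower).

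On siZBED2-1, ID1 in RT112 fell from 697 and 755 CPM to 80.1 and 136 (log2 fold change −2.75, SE 0.18, adjusted p 4.9e-11). On siZBED2-2 it fell from 647 and 732 CPM to 173 and 198 (−1.90, SE 0.17, adjusted p 4.36e-08). In SCaBER the corresponding levels were 236 and 280 CPM against 69.1 and 99.7 on siZBED2-1 (−1.61, SE 0.18, adjusted p 2.11e-07). They were 229 and 268 against 59.2 and 91.3 CPM on siZBED2-2 (−1.73, SE 0.18, adjusted p 1.59e-07). Each of these falls was smaller than that on the siControl background of the same line. The interaction given with the double transfections tests this difference as an average over both ZBED2 siRNAs, and it was not tested for each siRNA alone.

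ID2 in RT112 fell on siZBED2-1 from 58.9 and 43.7 CPM to 18.3 and 19.1 (−1.46, SE 0.28, adjusted p 0.00106), and on siZBED2-2 from 54.5 and 59.1 CPM to 16.5 and 19.2 (−1.67, SE 0.28, adjusted p 2.96e-04). In SCaBER ID2 had 16 and 62 counts on siZBED2-1 without and 17 and 33 with siFOXA1, and 22 and 64 on siZBED2-2 without and 20 and 11 with it, and neither value was called (adjusted p 0.757 and 0.429). ID3 in RT112 fell on siZBED2-2 from 644 and 533 CPM to 274 and 375 (−0.86, SE 0.15, adjusted p 4.15e-04). On siZBED2-1 it stood at 387 and 350 CPM without and at 254 and 292 with siFOXA1, which did not pass (−0.44, SE 0.15, adjusted p 0.0618), while the replicate block gave an adjusted p of 0.0284. In SCaBER ID3 fell on siZBED2-2 from 137 and 115 CPM to 73.5 and 79.1 (−0.73, SE 0.18, adjusted p 0.0155). This call was lost without siZBED2-2 replicate 1 (−0.60, adjusted p 0.156) and without either library of the double transfection (−0.68, adjusted p 0.105, and −0.78, adjusted p 0.053). On siZBED2-1 ID3 stood at 90.0 and 121 CPM without and at 67.8 and 85.1 with siFOXA1 (−0.46, SE 0.18, adjusted p 0.144).

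TGFBI in RT112 rose on siZBED2-2 from 60.4 and 58.6 CPM to 114 and 87.1 (0.75, SE 0.18, adjusted p 0.0108). That call was lost without siFOXA1+siZBED2-2 replicate 1 (0.54, adjusted p 0.181) and without siZBED2-2 replicate 2 (0.72, adjusted p 0.0688). On siZBED2-1 TGFBI was at 104 and 116 CPM without and at 111 and 110 with siFOXA1 (0.01, SE 0.18, adjusted p 0.993). The sign of that last value turned with library size as the only scaling (−0.087). In SCaBER TGFBI was lower in both double transfections than with the matching ZBED2 siRNA. It stood at 225 and 296 CPM against 304 and 412 on siZBED2-1 (−0.46, SE 0.15, adjusted p 0.0664, 0.00719 with the replicate block). It stood at 235 and 302 CPM against 337 and 408 on siZBED2-2 (−0.48, SE 0.15, adjusted p 0.0762, 0.00596 with the replicate block). On siZBED2-2 and on siZBED2-1 the value also passed without the double transfection replicate 2 or the ZBED2 siRNA replicate 1 (adjusted p between 0.0174 and 0.045). In both cases the pairs of libraries did not overlap. SMAD3 was not called on either ZBED2 siRNA. Its value in RT112 was −0.59 on siZBED2-1 (SE 0.22, adjusted p 0.0999) and −0.32 on siZBED2-2 (SE 0.23, adjusted p 0.449). The former passed without siFOXA1+siZBED2-1 replicate 1 (−1.09, adjusted p 0.00525). In SCaBER the values were −0.41 (SE 0.16, adjusted p 0.141) and −0.36 (SE 0.16, adjusted p 0.249).

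**Figure D3:**
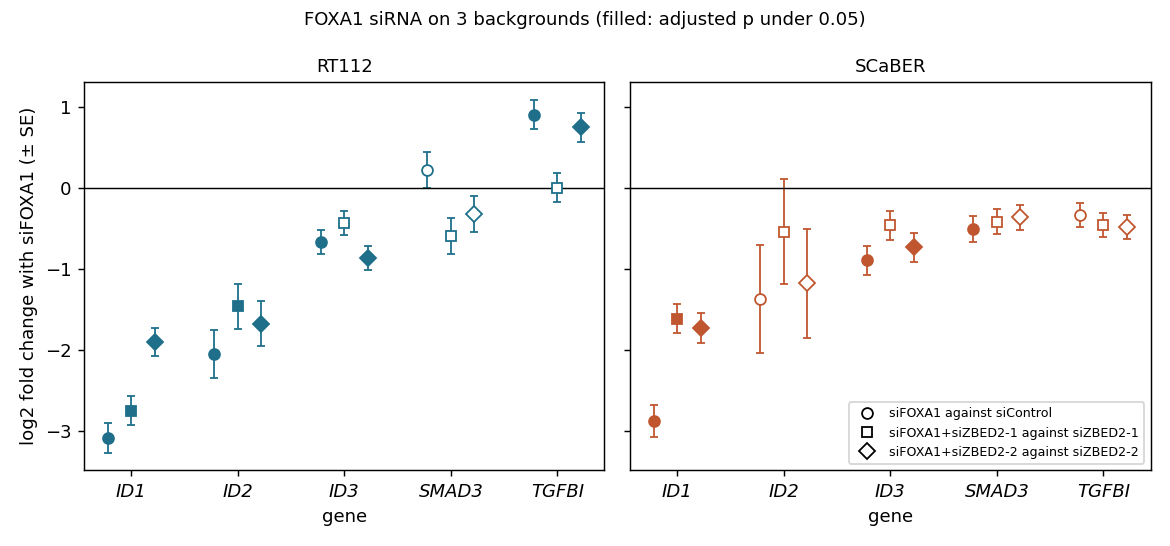
Log2 fold change (± SE) with siFOXA1 for 5 genes on the siControl, siZBED2-1 and siZBED2-2 backgrounds in RT112 (left) and SCaBER (right), with filled symbols for adjusted p under 0.05. ID1 is filled on all 3 backgrounds of both lines, between −3.08 and −1.90 in RT112 and between −2.88 and −1.61 in SCaBER, and TGFBI is filled on 2 backgrounds of RT112 only.

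The third comparison asked what the ZBED2 siRNAs did by themselves. These comparisons share the siControl libraries with the siFOXA1 comparison. In RT112 0 of 9 genes were called with siZBED2-1 against 8.8% of all genes, with 1 gene at an unadjusted p under 0.05 and 0 called by DESeq2. With siZBED2-2, 0 of 9 were called against 0.166% of all genes, with 2 at an unadjusted p under 0.05 and 0 by DESeq2. In SCaBER 1 of 8 was called with siZBED2-1, lower (4.65% of all genes), and 0 of 8 with siZBED2-2 (0.625% of all genes, 0 at an unadjusted p under 0.05 and 0 by DESeq2).

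The called gene was TGFB2 in SCaBER, which stood at 53.3 and 44.3 CPM with siControl and at 25.7 and 27.7 with siZBED2-1 (log2 fold change −0.89, SE 0.23, adjusted p 0.0163). The call was lost without siControl replicate 1 (−0.75, adjusted p 0.176) and without either siZBED2-1 library (−0.83, adjusted p 0.149, and −0.94, adjusted p 0.105). With siZBED2-2 TGFB2 stood at 50.3 and 37.3 CPM, which overlapped the controls. The 2 ZBED2 siRNAs differed in TGFB2 by −0.74 (SE 0.23, adjusted p 0.0649), and by −0.73 with an adjusted p of 0.0479 with the replicate block.

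For ID1 the log2 fold change in RT112 was 0.19 with siZBED2-1 (SE 0.16, adjusted p 0.58) and 0.11 with siZBED2-2 (SE 0.16). For ID1 in SCaBER the first siRNA gave −0.31 (SE 0.17, adjusted p 0.401), the second −0.34 (SE 0.17, adjusted p 0.699). ID3 in SCaBER was at 90.0 and 121 CPM with siZBED2-1 against 152 and 151 (−0.55, SE 0.18, adjusted p 0.0683, 0.0224 with the replicate block). SMAD3 in SCaBER was at 106 and 111 CPM with siZBED2-1 against 162 and 134 (−0.47, SE 0.16, adjusted p 0.0889, 0.0494 with the replicate block). For both genes each siZBED2-1 library was below each control.

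Set against each other in RT112, the 2 ZBED2 siRNAs differed in 2 of 9 genes, 1 in each direction (7.77% of all genes). ID3 was at 387 and 350 CPM with siZBED2-1 and at 644 and 533 with siZBED2-2 (−0.67, SE 0.15, adjusted p 0.00473). TGFBI was at 104 and 116 CPM with siZBED2-1 and at 60.4 and 58.6 with siZBED2-2 (0.89, SE 0.18, adjusted p 0.00268). The siControl libraries lay between the siRNAs for both genes. The ID3 call was lost without siZBED2-1 replicate 2 (−0.61, adjusted p 0.0588) and without siZBED2-2 replicate 1 (−0.52, adjusted p 0.0704). In SCaBER 0 of 8 genes differed (4.01% of all genes, 1 at an unadjusted p under 0.05 and 0 by DESeq2).

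The last comparison set siFOXA1 with a ZBED2 siRNA against siFOXA1 alone. It is a comparison of siRNA treatments, since a further fall of ZBED2 was called only for siZBED2-1 in SCaBER. ID1 was higher in the double transfections than with siFOXA1 alone, and it was the gene called in each of these comparisons in which any of the 9 was called. In RT112, 0 of 9 genes were called with siZBED2-1 added (2.55% of all genes, 3 at an unadjusted p under 0.05 and 0 by DESeq2) and 1 of 9, higher, with siZBED2-2 added (1.25%). In SCaBER 1 of 8 was called, higher, with siZBED2-1 added (2.73%) and 1 of 8, higher, with siZBED2-2 added (3.66%).

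ID1 in RT112 stood at 79.8 and 70.9 CPM with siFOXA1, at 80.1 and 136 with siZBED2-1 added (log2 fold change 0.53, SE 0.18, adjusted p 0.122) and at 173 and 198 with siZBED2-2 added (1.30, SE 0.18, adjusted p 2.37e-04). The first of these values was 0.86 with an adjusted p of 0.00238 without siFOXA1+siZBED2-1 replicate 1. In SCaBER ID1 stood at 41.8 and 44.8 CPM with siFOXA1, at 69.1 and 99.7 with siZBED2-1 added (0.96, SE 0.19, adjusted p 0.00294) and at 59.2 and 91.3 with siZBED2-2 added (0.81, SE 0.20, adjusted p 0.0112). Both pairs of libraries with both siRNAs lay above both siFOXA1 libraries. The calls were lost without siFOXA1+siZBED2-1 replicate 2 (0.66, adjusted p 0.16) and without siFOXA1+siZBED2-2 replicate 2 (0.48, adjusted p 0.336), respectively. No library with both siRNAs in either line reached the lowest library without siFOXA1.

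The interaction, which averages both ZBED2 siRNAs, subtracts the siFOXA1 change on siControl from that on the ZBED2 siRNAs. Because the 9 genes were chosen with earlier results of these data known, its calls are not independent of that choice. In SCaBER the interaction was 1.21 for ID1 (SE 0.23, adjusted p 0.00173), the 1 call among 8 genes (2.29% of all genes). In RT112 it was 0.76 for ID1 (SE 0.21, adjusted p 0.0979), and 0 of 9 genes were called (0.611% of all genes), with 3 at an unadjusted p under 0.05 and 1 by DESeq2. With the replicate block the RT112 value was 0.74 with an adjusted p of 0.0204, and it passed without siFOXA1 replicate 1 (0.85, adjusted p 0.0387), siFOXA1+siZBED2-1 replicate 1 (0.93, adjusted p 0.00373), siFOXA1+siZBED2-2 replicate 1 (0.80, adjusted p 0.0445) or siZBED2-2 replicate 2 (0.82, adjusted p 0.0373). FOXA1 itself in RT112 was at 6.87 and 9.57 CPM with siFOXA1. It was at 4.04 and 11.4 CPM with siZBED2-1 added and at 15.7 and 10.0 with siZBED2-2 added. In SCaBER FOXA1 had 4 and 6 counts with siFOXA1, 0 and 1 with siZBED2-1 added and 3 and 2 with siZBED2-2 added. The part of the FOXA1 level in the ID1 values was not tested in either line. The total amount of siRNA in the double transfections is not given in the sources used here, so its effect and that of the added siRNA cannot be told apart.

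ID2 in RT112 was at 7.88 and 11.7 CPM with siFOXA1, at 18.3 and 19.1 with siZBED2-1 added (0.94, SE 0.30, adjusted p 0.0986) and at 16.5 and 19.2 with siZBED2-2 added (0.87, SE 0.30, adjusted p 0.176). Each of the 4 libraries with both siRNAs was above both siFOXA1 libraries, yet neither value passed. TGFBI in RT112 was at 135 and 175 CPM with siFOXA1, at 111 and 110 with siZBED2-1 added (−0.48, SE 0.18, adjusted p 0.191) and at 114 and 87.1 with siZBED2-2 added (−0.62, SE 0.18, adjusted p 0.0905, 0.0485 with the replicate block and 0.0304 without siFOXA1 replicate 1).

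The other genes of the pathway were read from lists of ligands, receptors, SMADs and co-factors, inhibitors and target genes. With siFOXA1 against siControl, the calls in RT112 fell in both directions, while the target genes called in SCaBER all rose. Of 22 target genes tested in each line, 2 rose and 4 fell in RT112 (median log2 fold change −0.27, against −0.01 over all genes tested), and 7 rose and 0 fell in SCaBER (median 0.23, against −0.02). Of all genes tested, 23.3% were called in RT112 and 17.8% in SCaBER, so the 6 of 22 in RT112 were near the share of all genes. Of 10 SMADs and co-factors, 0 were called in RT112, and 1 fell in SCaBER. On siZBED2-1, 2 of the 22 target genes rose and 1 fell in SCaBER (median 0.07, 5.78% of all genes called). On siZBED2-2, 2 rose and 0 fell there (median −0.09, 3.03% of all genes). In RT112 2 rose and 4 fell on siZBED2-1 (10.3% of all genes), and 2 rose and 3 fell on siZBED2-2 (8.78%). These lists were composed with earlier results of the same samples known.

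Among ligands, 1 rose and 2 fell of 9 tested in RT112, and 1 rose and 1 fell of 8 in SCaBER, where 23.3% and 17.8% of all genes were called. INHBA, which encodes the activin A subunit, went in SCaBER from 107 and 82.5 CPM with siControl to 438 and 390 with siFOXA1 (2.11, SE 0.15, adjusted p 2.44e-12). In RT112 it gave −0.08 (SE 0.58, adjusted p 0.943), and the response differed between the lines by −2.18 (SE 0.55, adjusted p 0.023). INHBB, which encodes the activin B subunit, rose in RT112 from 14.4 and 10.3 CPM to 48.3 and 40.7 (1.84, SE 0.32, adjusted p 1.49e-04) and gave −0.70 in SCaBER (SE 0.37, adjusted p 0.204), a line difference of 2.53 (SE 0.46, adjusted p 0.00138). A different activin subunit gene thus rose in each line on siControl. On siZBED2-1 and siZBED2-2, INHBB in RT112 gave 0.64 (adjusted p 0.213) and 1.41 (adjusted p 0.0062). INHBA in SCaBER gave 0.08 and 0.20 there (adjusted p 0.835 and 0.577). GDF11, an activin-like ligand gene, fell in both lines, by 2.28 in RT112 (SE 0.63, adjusted p 0.00886) and by 1.63 in SCaBER (SE 0.57, adjusted p 0.0441) on the log2 scale. On siZBED2-1 and siZBED2-2 GDF11 was not called, with −1.62 and −1.70 in RT112 and 0.07 and −0.79 in SCaBER. BMP3 fell in RT112 from 17.5 and 13.4 CPM to 7.88 and 4.57 (−1.32, SE 0.42, adjusted p 0.0252).

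Among receptors, 1 of 9 was called in RT112 (23.3% of all genes) and 0 of 10 in SCaBER (17.8%). TGFBR2, the type II receptor gene of TGF-β, fell in RT112 from 57.4 and 66.1 CPM to 25.9 and 22.4 (−1.37, SE 0.22, adjusted p 5.51e-05). It also fell on siZBED2-1 (−1.60, adjusted p 1.67e-05) and on siZBED2-2 (−1.20, adjusted p 7.26e-04). SMAD2, the other receptor SMAD of the TGF-β branch, fell in SCaBER from 32.6 and 47.1 CPM to 16.8 and 27.8 (−0.86, SE 0.28, adjusted p 0.0278). On siZBED2-1 and siZBED2-2 SMAD2 was not called (−0.13, adjusted p 0.875, and −0.52, adjusted p 0.373).

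Among 15 inhibitors tested in each line, 2 rose and 1 fell in RT112, and 3 rose and 2 fell in SCaBER, against 23.3% and 17.8% of all genes. The 3 of 15 in RT112 did not exceed that share. PMEPA1, a TGF-β-induced gene whose product holds SMAD2 and SMAD3 back, went opposite ways on siControl. It fell in RT112 from 481 and 467 CPM to 370 and 302 (−0.51, SE 0.14, adjusted p 0.00854) and rose in SCaBER from 44.3 and 54.4 CPM to 121 and 90.7 (1.08, SE 0.20, adjusted p 9.28e-05), a line difference of −1.60 (SE 0.24, adjusted p 6.85e-05). On siZBED2-1 and siZBED2-2 it was called in neither line. It gave −0.22 and −0.06 in RT112 (adjusted p 0.367 and 0.857) and −0.14 and −0.16 in SCaBER (adjusted p 0.794 and 0.788). FSTL3, which encodes a secreted activin antagonist, rose in SCaBER from 1.87 and 2.95 CPM to 19.0 and 20.8 (3.02, SE 0.55, adjusted p 9.92e-05), while FST, which encodes the related antagonist follistatin, fell from 413 and 407 CPM to 173 and 203 (−1.14, SE 0.14, adjusted p 3.15e-07). SMURF2, a ubiquitin ligase gene, rose in SCaBER (0.86, SE 0.20, adjusted p 0.00146). NEDD4L, another ubiquitin ligase gene, and SKIL, a SMAD corepressor gene, rose in RT112 (0.86, SE 0.28, adjusted p 0.0251, and 0.49, SE 0.16, adjusted p 0.0269). On siZBED2-1 FST also fell in SCaBER (−0.90, adjusted p 6.66e-05), but on siZBED2-2 it was not called (−0.14, adjusted p 0.721). FSTL3 was called on neither (0.63 and 0.77, adjusted p 0.575 and 0.54). SMURF2, NEDD4L and SKIL were not called on either ZBED2 siRNA. SMURF2 gave 0.18 and −0.15 in SCaBER, and in RT112 NEDD4L gave −0.21 and −0.16 and SKIL −0.16 and 0.12.

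Among target genes, CDKN1A, the gene of the cell cycle inhibitor p21, rose in SCaBER from 63.8 and 57.1 CPM to 231 and 237 (1.93, SE 0.15, adjusted p 1.91e-11) and gave 0.15 in RT112 (SE 0.25, adjusted p 0.731), a line difference of −1.79 (SE 0.29, adjusted p 2.19e-04). FN1, the fibronectin gene, rose in SCaBER from 34.1 and 34.7 CPM to 92.1 and 97.5 (1.45, SE 0.24, adjusted p 2.23e-05) with a line difference of −1.78 (SE 0.43, adjusted p 0.0175). ITGB6, which encodes a subunit of an integrin that activates latent TGF-β, rose in both lines, by 0.84 in RT112 (SE 0.18, adjusted p 0.00137) and by 1.73 in SCaBER (SE 0.22, adjusted p 2.98e-07). THBS1, the thrombospondin 1 gene, rose in RT112 (0.69, SE 0.16, adjusted p 0.00271). SNAI2, a gene of an epithelial-mesenchymal transition factor, fell in RT112 (−1.26, SE 0.27, adjusted p 0.00108), and so did HEY1 (−2.13, SE 0.34, adjusted p 4.95e-05), a Notch and BMP target. On siZBED2-1 and siZBED2-2, SNAI2 gave −0.27 and −0.90 in RT112 (adjusted p 0.584 and 0.0363). HEY1 fell on both there, and ITGB6 and THBS1 rose on both, all with adjusted p under 0.05. In SCaBER CDKN1A gave 0.33 and 0.83 (adjusted p 0.213 and 6.52e-04). FN1 gave 0.93 and 0.60 (0.0165 and 0.185), and ITGB6 0.76 and 0.40 (0.0262 and 0.366).

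**Figure D4:**
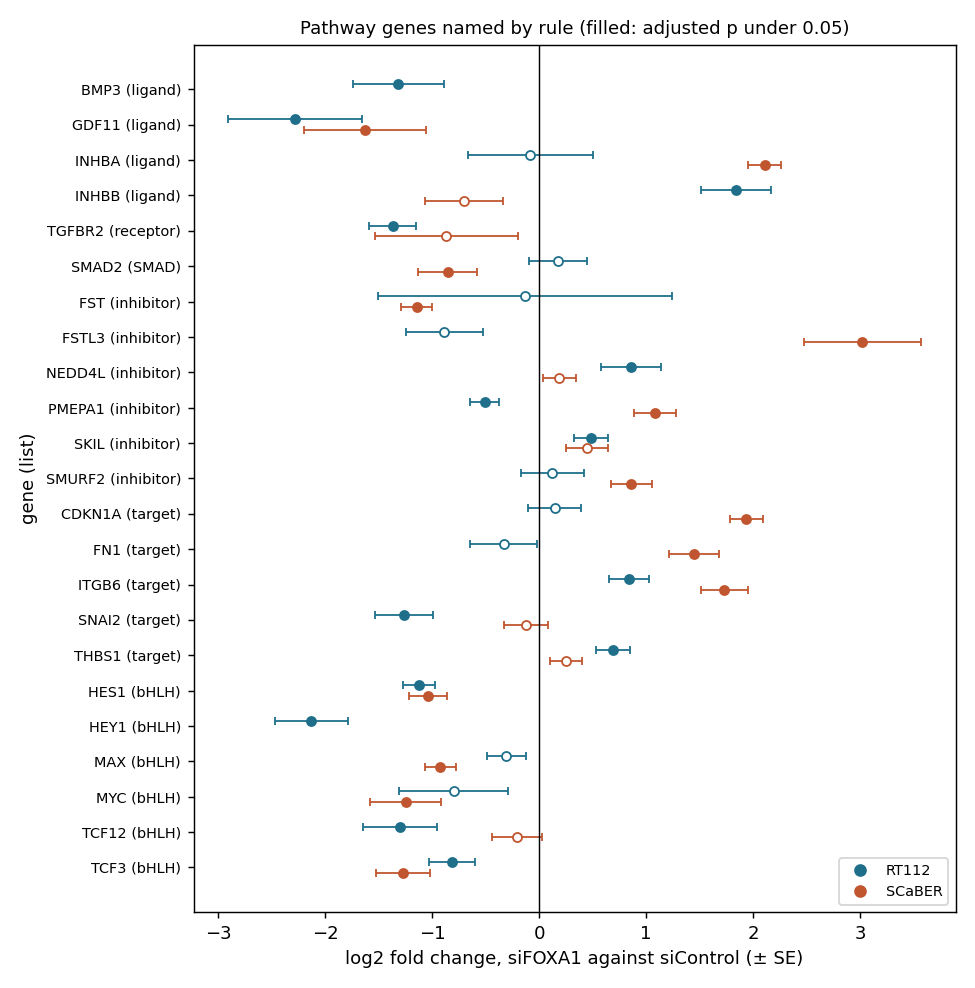
Log2 fold change (± SE) of siFOXA1 against siControl in RT112 and SCaBER for the reported pathway genes, with their list in brackets, and filled points for adjusted p under 0.05; a line in which a gene was not tested has no point. PMEPA1 is filled on opposite sides of 0, at −0.51 in RT112 and 1.08 in SCaBER, and GDF11, HES1 and TCF3 are filled and negative in both lines.

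The values of the pathway genes raised by siFOXA1 in SCaBER are given on the ZBED2 siRNAs too, as a description. The genes were named for their siFOXA1 change on siControl, which the interaction subtracts, so a value of the opposite sign is favoured by that choice and is no independent support. INHBA stood at 200 and 211 CPM with siZBED2-1 and at 239 and 195 with siFOXA1 added, and the libraries overlapped. The interaction was −1.97 for INHBA (SE 0.18), −1.35 for CDKN1A (SE 0.18), −1.23 for PMEPA1 (SE 0.24), −1.15 for ITGB6 (SE 0.26), −2.32 for FSTL3 (SE 0.65) and −0.68 for FN1 (SE 0.29).

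**Figure D5:**
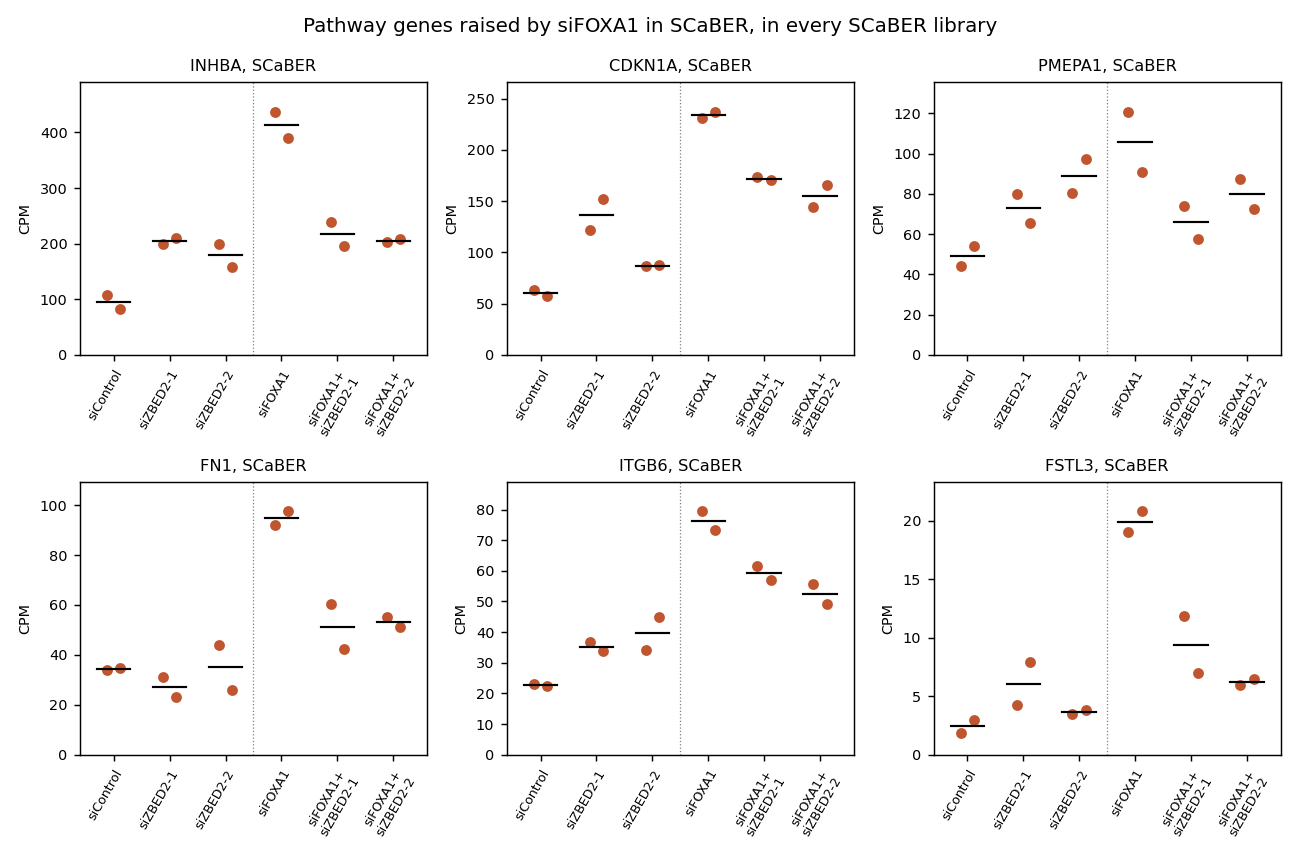
CPM of INHBA, CDKN1A, PMEPA1, FN1, ITGB6 and FSTL3 in SCaBER on linear axes from 0, for the 2 libraries (points) and their mean (bars) of each treatment, with a dotted line between treatments without and with siFOXA1. INHBA was at 438 and 390 CPM in the siFOXA1 libraries and at 195 to 239 in the double transfections.

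Possible partners of ID proteins were read from a list of bHLH and ETS genes, of which 10 were tested in each line. Not every gene on it, MAX and MYC among them, is an established partner, so its counts describe the list only. With siFOXA1, 0 rose and 4 fell in RT112 (median log2 fold change −0.55, against −0.01 over all genes tested), and 0 rose and 4 fell in SCaBER (median −0.15, against −0.02). Of all genes tested, 11.9% fell in RT112 and 9.12% in SCaBER. TCF3, the gene of the E proteins E12 and E47, fell in RT112 from 82.1 and 86.2 CPM to 42.2 and 54.6 (−0.81, SE 0.22, adjusted p 0.00698) and in SCaBER from 46.6 and 51.4 CPM to 17.4 and 23.8 (−1.27, SE 0.26, adjusted p 3.83e-04). HES1, a Notch target, fell in RT112 from 395 and 431 CPM to 202 and 181 (−1.12, SE 0.15, adjusted p 5.59e-06) and in SCaBER from 96.7 and 104 CPM to 47.1 and 51.8 (−1.04, SE 0.18, adjusted p 5.26e-05). TCF12, another E protein gene, fell in RT112 (−1.30, SE 0.34, adjusted p 0.00674), and MAX (−0.92, SE 0.15, adjusted p 1.31e-05) and MYC (−1.25, SE 0.33, adjusted p 0.00602) fell in SCaBER. With HEY1, which is on this list as well, these were the 4 that fell in each line. TCF3 did not fall with siFOXA1 on either ZBED2 siRNA in RT112, where it gave 0.09 (adjusted p 0.859) and −0.02 (adjusted p 0.982). In SCaBER TCF3 (adjusted p 0.157 and 0.116), HES1 (0.841 and 0.137) and MYC (0.911 and 0.0942) were called on neither. MAX fell there on both (0.00263 and 0.0362). In RT112 HES1 fell on both (7.69e-05 and 0.0095), and TCF12 on siZBED2-1 (0.0484) but not on siZBED2-2 (0.251).

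Cell cycle and interferon genes moved with the same treatments. With siFOXA1 against siControl, 20 of 24 cell cycle genes fell in RT112 and 24 of 24 in SCaBER, and 17 of 23 interferon genes rose in RT112 and 24 of 24 in SCaBER. Of all genes tested, 23.3% were called in RT112 and 17.8% in SCaBER. In RT112 the summed cell cycle level was 978 to 2509 CPM in the 6 libraries with siFOXA1 and 2809 to 5012 in the 6 without, and the summed interferon level 499 to 1844 CPM with and 316 to 473 without. In SCaBER the cell cycle sum was 1844 to 3596 CPM with and 3285 to 4944 without, and the interferon sum 3881 to 13012 with and 1501 to 2289 without. In SCaBER, 20 of 24 cell cycle genes were higher and 21 of 24 interferon genes lower when siZBED2-2 was added to siFOXA1 (3.66% of all genes called). When siZBED2-1 was added, these counts were 3 of 24 and 14 of 24 (2.73% of all genes). In RT112, adding siZBED2-2 gave 2 of 24 cell cycle genes higher and 0 of 23 interferon genes called (1.25% of all genes). Adding siZBED2-1 there gave 4 of 24 cell cycle genes lower and 0 of 23 interferon genes called (2.55% of all genes). The ID1 difference of these comparisons was 0.96 with siZBED2-1 and 0.81 with siZBED2-2 in SCaBER, and 0.53 and 1.30 in RT112. The part of proliferation and of the interferon genes in the ID1, ID3 and CDKN1A values was not tested.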

How the data were processed

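Single-end 3′ RNA-seq (QuantSeq FWD) was run on 24 libraries, in 12 groups of 2 set by the labels. The authors deposited raw counts, whole numbers of reads per gene. The submitters' processing notes name STAR 2.6.1a and hg38, while the methods of the study name another build. Deposited TPM values were not used, since length scaling does not suit 3′ reads. No molecular identifiers are stated, so intervals and floors cover counting error only.

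Counts were tested with edgeR 4.0.16 in R 4.3.3 (quasi-likelihood F-test, TMM, filterByExpr with minimum count 10 and minimum total count 15). A fit held 1 line (12 libraries, a mean for each of 6 groups), and another held all 24 for comparisons between lines. This left 13264 genes in RT112, 13129 in SCaBER and 14823 in both, with a biological coefficient of variation of 25.8%, 21.6% and 24.5%. All 9 genes passed the filter in RT112, and 8 passed in SCaBER. P-values were adjusted over all genes tested (Benjamini-Hochberg, 0.05), and SE was derived from the fold change and the F statistic. The pairing comes from the labels, where equal replicate numbers mark an experiment batch. Deviations of equal-numbered libraries correlated at 0.0819 on average in RT112 and 0.0694 in SCaBER, over 0.1 in 5 and 3 of 15 pairs of groups. Nothing else says whether replicates were separate cultures, so p-values measure the spread between these libraries. Their chi-square per gene was 6.24 to 23.9, so no library was counted more than once.

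Alternatives were RLE scaling, library size only, no filter, DESeq2 1.42.0, the replicate block and leaving out each library. The fits were tested on simulated counts, with 100 genes changed by a log2 value of 1 and 100 by 2 in the siFOXA1 libraries of each line. In RT112 36% and 56% of them were called, and in SCaBER 43% and 68%. Unchanged genes gave 8 false calls in RT112 and 3 in SCaBER. A gene that was not called may thus have changed. The 9 genes and the gene lists were chosen with earlier results of these data known. Beyond the 9 genes, the text names up to 4 called genes per pathway list and line with the smallest p, siFOXA1 against siControl; 1 such target gene is not reported here but stays in the list counts. Coordinates and promoters came from RefSeq on GRCh38.p14, in which all 9 genes matched by symbol. The siRNA sequences were not used here.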

Additional observations from a re-analysis of the deposited data

Results flagged for a closer look

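The interaction of siFOXA1 and siZBED2 on ID1 in SCaBER was 1.21 on the log2 scale (SE 0.23, adjusted p 0.00173, edgeR quasi-likelihood test), because the fall of ID1 with siFOXA1 differed between the siControl background and the ZBED2 siRNA backgrounds. ID1 was at 41.8 and 44.8 CPM with siFOXA1 and at 69.1, 99.7, 59.2 and 91.3 CPM in the double transfections, all 4 higher. The genes were chosen with earlier results of these data known, so this call is not independent of that choice.

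The response of TGFBI to siFOXA1 differed between the lines by 1.23 on the log2 scale (SE 0.24, adjusted p 0.00309, edgeR quasi-likelihood test). Both RT112 siFOXA1 libraries were above both RT112 controls, and both SCaBER siFOXA1 libraries were below both SCaBER controls.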

How the results depend on the processing

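Of the single-gene values, 308 kept their direction and side of the threshold under other settings, 21 passed where they had not, and 1 reversed, TGFBI on siZBED2-1 in RT112 (−0.087 with library size only). Counts of the 9 genes moved as follows under the settings other than leaving out a library, and the cause was not tested. The RT112 interaction went from 0 to 1 under DESeq2, no filter and the replicate block, and siZBED2-1 added to siFOXA1 in RT112 from 0 to 1 with no filter. The siFOXA1 call on siZBED2-1 in SCaBER went from 1 to 2 under library size only, no filter and the replicate block. For siZBED2-2 added to siFOXA1 in RT112 it went from 1 to 2 under DESeq2 and the replicate block, for siZBED2-1 in SCaBER from 1 to 2 under library size only and no filter and to 3 with the replicate block, and for the ZBED2 siRNAs against each other in SCaBER from 0 to 1 with the replicate block. The siFOXA1 count went from 2 to 3 on siZBED2-1 in RT112 under DESeq2, library size only, no filter and the block, where ID3 was gained (adjusted p 0.0316 with DESeq2), from 2 to 3 on siZBED2-2 in SCaBER under no filter and the block, and from 3 to 4 in SCaBER with the block. The block changed no other call than those given with it in the text.

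Leaving out 1 library at a time kept 270 single-gene values, lost 16 calls, gained 11 and reversed 3. The RT112 interaction ranged from 0 to 1 calls, siZBED2-1 added to siFOXA1 from 0 to 2 in RT112 and 0 to 1 in SCaBER, siZBED2-2 added from 1 to 2 in RT112 and 0 to 1 in SCaBER, siFOXA1 on siZBED2-1 and on siZBED2-2 in SCaBER from 1 to 2 each, siZBED2-1 in SCaBER from 0 to 1, and the ZBED2 siRNAs against each other in RT112 from 1 to 2. TGFB2 with siFOXA1 in SCaBER ranged from −0.24 to 0.022, the latter without siControl replicate 1, and TGFBI on siZBED2-1 in RT112 from −0.065 to 0.092.

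Over all genes, calls rose by more than 1.5 times for the line difference (382 to 911 with DESeq2 and 597 with the block), the interaction in RT112 (81 to 248 with DESeq2, 224 with no filter and 212 with the block) and in SCaBER (300 to 508 with the block), siZBED2-2 in RT112 (22 to 72, 58 and 44) and in SCaBER (82 to 125 with the block), siFOXA1 on siZBED2-2 in SCaBER (398 to 641 with the block), siZBED2-1 added in RT112 (338 to 552 with the block) and siZBED2-2 added in RT112 (166 to 335, 324 and 336). With library size only unless stated, the higher share of calls moved by over 10 points for siFOXA1 on siZBED2-1 (47.5% to 32.9%) and on siZBED2-2 in RT112 (50.6% to 33.3%), for siZBED2-2 added in RT112 (71.7% to 85.8%) for siZBED2-2 in RT112 (81.8% to 70.8% with DESeq2, 60.3% with no filter and 65.9% with the block) and for the SCaBER interaction (47.0% to 59.9%), and the median of all genes with siFOXA1 in RT112 was −0.11.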

Other observations

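Genes whose pattern over the 12 libraries of each line was most like that of ID1 were ranked by the lower of the 2 within-line correlations of log2 CPM with ID1, over 7587 genes with a mean of at least 10 CPM in each line. The libraries share their treatments, so this is a description with no test. PPDPF ranked first (r 0.966 in RT112 and 0.970 in SCaBER), followed by PABPC4 (0.972 and 0.965), NSA2 (0.952 and 0.959), SEPT7 (0.967 and 0.950) and FAM234A (0.955 and 0.946). ID3 ranked 160 (0.818 and 0.830) and SMAD3 1902 (0.200 and 0.603). TGFBI ranked 5996, with r −0.705 in RT112 and 0.796 in SCaBER.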
